A study of Mus musculus with 24 samples.

Results

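Chromatin accessibility was followed at the genes of the PPAR receptors (Pparg, Ppara, Ppard), their obligate partners the retinoid X receptors (Rxra, Rxrb, Rxrg) and the PGC-1 coactivators (Ppargc1a, Ppargc1b). Members were the deposited ATAC-seq intervals that overlap 1 of these 8 gene bodies (GRCm38.p6) extended by 20 kb on each side, whatever their strength. They came to 198 of the 299780 intervals of cells without inhibitor (Ctrl) and 183 of the 272268 intervals of inhibitor-treated cells (Paused), at 8 of 21887 protein-coding genes. ATAC-seq records where the Tn5 transposase can insert adapters into nuclear DNA and therefore reads open chromatin, not transcription. Embryonic stem cells of the mouse line E14, grown in serum and LIF on gelatin, were either wild type (WT) or from 1 of 2 Smad2 knockout lines (labelled Smad2_KO1, Smad2_KO2). Libraries were made from untreated cells and after 12 hours in 200 nM INK128, an inhibitor of the kinase mTOR that the labels describe as pausing the cells. All 6 groups had 4 libraries of 50000 cells, 24 in all. How the deletions were made, and whether the replicates were separate cultures, is not given in the sources used here, so p-values measure the spread between these libraries. The tables of the 2 treatments had separate intervals and separate normalization, so knockout was compared with WT within each treatment only.

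PPARs are nuclear receptors activated by fatty acids and their derivatives. A PPAR binds DNA as a dimer with an RXR, classically at 2 copies of AGGTCA with 1 base between them, and recruits PGC-1 coactivators that drive mitochondrial and fatty acid oxidation genes. Pparg is best known as the master regulator of fat cell formation, Ppara as a regulator of fatty acid breakdown in liver, and Ppard as the most broadly expressed of the PPAR genes. Smad2 carries Nodal and Activin signals to the nucleus, where Smad complexes favour the letters CAGAC and work with partners such as Foxh1.

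Promoter windows from 250 bases before to 50 bases after an annotated start were taken from RefSeq (GRCm38.p6), which gave 12 windows for 7 of the 8 genes. The 5 shown carry the start-site results below: the 3 starts of Pparg, of which 1 lay in open chromatin, the open start of Ppard, and the downstream start of Rxrg, which was more open in the knockout lines after INK128. All are on the plus strand and are written 5′ to 3′, with capitals marking AGGTCA or CAGAC on either strand.
Pparg start 1, chr6:115360894-115361193: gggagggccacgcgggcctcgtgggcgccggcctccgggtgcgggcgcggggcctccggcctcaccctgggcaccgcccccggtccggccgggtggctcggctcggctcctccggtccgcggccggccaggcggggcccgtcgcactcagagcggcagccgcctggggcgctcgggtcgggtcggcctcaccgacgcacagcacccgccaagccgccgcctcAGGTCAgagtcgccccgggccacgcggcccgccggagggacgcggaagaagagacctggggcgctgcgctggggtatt
Pparg start 2, chr6:115362099-115362398: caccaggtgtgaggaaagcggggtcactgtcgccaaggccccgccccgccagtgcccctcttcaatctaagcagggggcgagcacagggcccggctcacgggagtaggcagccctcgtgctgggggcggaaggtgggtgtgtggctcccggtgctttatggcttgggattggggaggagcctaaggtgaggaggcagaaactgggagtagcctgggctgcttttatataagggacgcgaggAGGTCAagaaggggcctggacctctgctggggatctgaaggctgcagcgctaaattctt
Pparg start 3, chr6:115421816-115422115: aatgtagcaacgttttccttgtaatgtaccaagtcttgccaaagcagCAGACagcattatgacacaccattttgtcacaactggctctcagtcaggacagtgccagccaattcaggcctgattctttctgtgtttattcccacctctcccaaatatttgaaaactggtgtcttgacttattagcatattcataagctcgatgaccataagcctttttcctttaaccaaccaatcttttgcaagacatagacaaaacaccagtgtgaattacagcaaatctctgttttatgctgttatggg
Ppard, chr17:28232504-28232803: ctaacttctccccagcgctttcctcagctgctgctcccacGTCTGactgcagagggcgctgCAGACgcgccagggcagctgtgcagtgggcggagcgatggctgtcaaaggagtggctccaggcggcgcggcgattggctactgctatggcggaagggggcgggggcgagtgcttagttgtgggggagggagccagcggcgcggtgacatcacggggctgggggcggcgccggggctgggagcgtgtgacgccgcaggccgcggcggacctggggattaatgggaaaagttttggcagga
Rxrg start 2, chr1:167618015-167618314: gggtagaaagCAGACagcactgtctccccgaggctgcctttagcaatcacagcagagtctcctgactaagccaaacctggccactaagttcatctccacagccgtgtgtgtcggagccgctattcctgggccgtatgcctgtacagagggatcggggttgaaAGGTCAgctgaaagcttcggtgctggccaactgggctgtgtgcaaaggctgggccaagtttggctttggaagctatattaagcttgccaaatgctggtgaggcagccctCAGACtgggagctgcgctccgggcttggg
AGGTCA occurred once in each of the first 2 Pparg windows and in the Rxrg window, and was not in the third Pparg window or the Ppard window. CAGAC occurred once in the third Pparg window and 2 times each in the Ppard and Rxrg windows. Over all 32851 promoter windows of this length, 16.3% held AGGTCA and 49.6% held CAGAC on either strand, so either match is common. The Foxh1 letters TGTNNATT, in 12.2% of all windows, occurred 2 times in the third Pparg window and in no other window shown. The paired PPAR element was searched with up to 2 mismatches, which 3.86% of windows met. Among the members only the second Rxra window, not shown, met it.

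Reads in intervals per library, recovered from the normalized values, ran from 11.8 to 16.5 M in Ctrl and from 11.5 to 20.0 M in Paused, where M stands for megareads. At Smad2 itself, the strongest interval inside the gene (chromosome 18, 76241181 to 76241381 in Ctrl) had means of 362 ± 44.6 normalized reads (WT), 363 ± 42.6 (Smad2_KO1) and 355 ± 23.1 (Smad2_KO2; SD, n = 4 each), so accessibility there does not check the knockout labels. Inside the Smad2 body 0 of 7 tested intervals were called in Ctrl, and 2 of 11 were called higher in the knockout lines in Paused. The start sites of 7 of 7 embryonic stem cell marker genes with an annotated start had an interval within 500 bases in Ctrl and 6 of 7 in Paused, with mean levels of 35.9 to 563 normalized reads over 12 libraries. Adipocyte markers had one at 1 of 4 genes in Ctrl and 2 of 4 in Paused, none above 21.0. Fibroblast markers had one at 0 of 2 and 1 of 2, and Foxa2, the 1 primitive endoderm marker with an annotated start, had one in both tables (113 and 143). Same-numbered Smad2_KO1 and Smad2_KO2 libraries were on average more alike than differently numbered ones in both tables, most so in Paused. A chi-square statistic of their recovered reads is 1 per degree of freedom under counting noise alone. In Paused it averaged 1.03 over the 4 same-numbered pairs and 1.25 over the other pairs. Replicate 2 there (1.001) differed by less than the sampling noise, whose limit was 1.006. In Ctrl the averages were 1.14 and 1.25, and replicate 4 had 1.016. Pairs within a line were not compared. Since the labels of same-numbered libraries name different lines, these libraries were not merged. Counts are therefore also given with the knockout libraries of each number averaged to 1 sample.

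An interval was tested where at least 4 of 12 libraries had 10 or more normalized reads, and was called when both knockout lines passed an adjusted p of 0.05 against WT in the same direction (limma on log2(value + 1), Benjamini-Hochberg over every tested interval of the table). With 8 knockout and 4 WT libraries, this filter admits weak intervals that are high in knockout more readily than those high in WT. Several weak intervals called higher below had a WT mean under 10. In Ctrl 21 of 195 tested member intervals were called (10.8%), 15 higher and 6 lower in the knockout lines, where 7.15% of all tested intervals were called, 3.95% higher and 3.2% lower. In Paused 28 of 179 were called (15.6%), 17 higher and 11 lower, where 13.9% of all were called, 9.01% higher and 4.92% lower. The members' shares lay near those of the whole tables, and the results below are therefore about single elements. With the same-numbered knockout libraries averaged, 26 members were called in Ctrl, where 13.0% of all tested intervals were, and 45 in Paused, where 19.8% were. That fit made 1 test of knockout against WT and did not require both lines, so its counts are not comparable with 21 and 28. With no filter 22 members were called in Ctrl and 28 in Paused under the both-lines rule, where 6.78% and 13.4% of all intervals were. The split by direction followed the scaling. With DESeq2 size factors 10 were higher and 7 lower in Ctrl, and 9 higher and 19 lower in Paused. With edgeR's TMM factors the splits were 10 to 6 and 10 to 18. The edgeR test gave 8 higher and 8 lower in Ctrl and 7 and 19 in Paused, and DESeq2 gave 2 and 5, and 3 and 15, so the majority of higher calls turned under DESeq2 in Ctrl and under each of these 4 settings in Paused. The whole tables turned as well: with size factors 2.83% of all Ctrl intervals were higher and 4.75% lower, and 6.01% and 8.65% of all Paused intervals. With edgeR the shares were 2.59% and 5.21% in Ctrl, and 5.51% and 9.02% in Paused. With DESeq2 they were 0.921% and 3.14% in Ctrl, and 2.39% and 6.51% in Paused. The median log2 fold change, averaged over the knockout lines, was 0.13 at members and 0.08 over all intervals in Ctrl, and 0.17 and 0.12 in Paused. With size factors those medians were 0.06, 0.01, 0.07 and 0.02. Between Smad2_KO1 and Smad2_KO2 limma called 0 member intervals in either table, with 4 and 2 at an unadjusted p under 0.05, and edgeR and DESeq2 also called 0. The count was 0 over all tested intervals of both tables too. Among 195 and 179 tested members, chance alone would be expected to pass more than 4 and 2 at that unadjusted p. Both lines were compared with the same 4 WT libraries, so the 2 comparisons behind a call are not independent.

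Fold changes also moved with the level of an interval. In the top decile of levels the median over all tested intervals was -0.07 in Ctrl and -0.14 in Paused, and in the bottom decile it was 0.23 and 0.36. Of the 11 lower calls at members in Paused, 6 were among the 21 tested members in that top decile, and no higher call was. Over all Paused intervals of that decile 18.1% were called lower and 2.04% higher. All 8 knockout libraries lay above all 4 WT libraries at 10 member intervals and below them at 7 in Ctrl, against 7.48% of all tested intervals on either side. In Paused the counts were 16 and 10, against 11.5%.

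**Figure D1:**
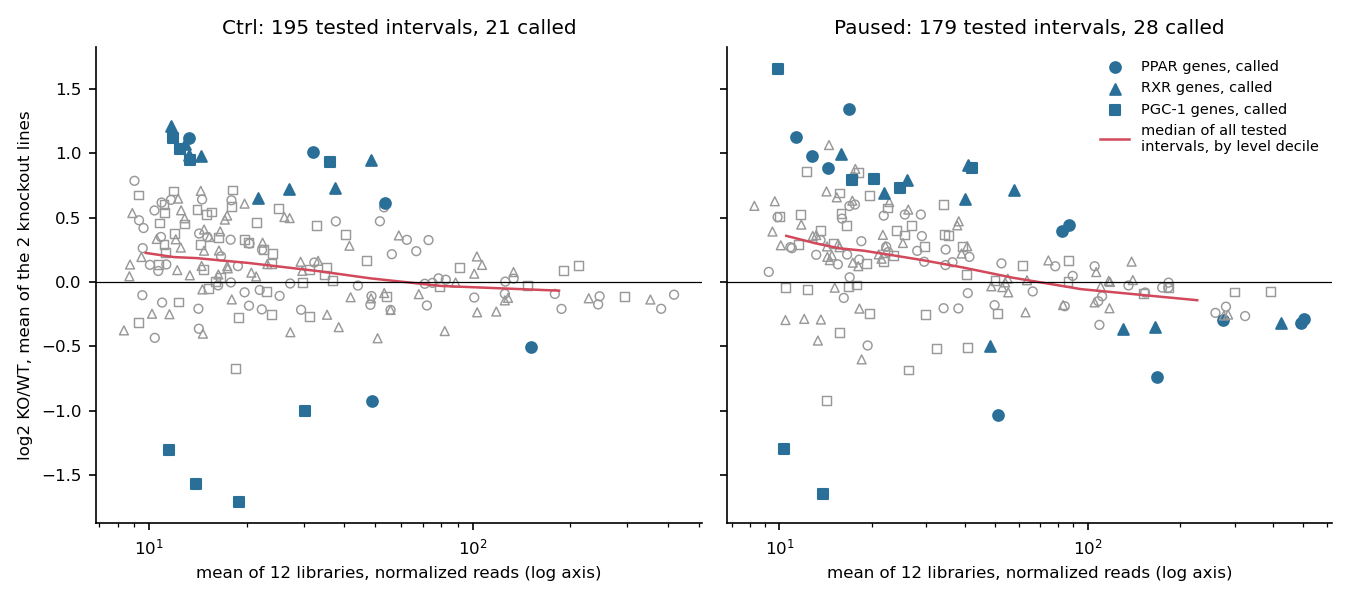
Log2 fold change of knockout over WT (mean of both lines, vertical axis) against the mean level over 12 libraries (normalized reads, log axis) for the 195 and 179 tested member intervals; filled symbols are called, open grey symbols are not, and the red line is the median of all tested intervals in each decile of level. Higher calls sit among weak and middling intervals, and in Paused the strongest called intervals are lower.

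Many of these calls were lost in fits that left out 1 library. Such fits also have fewer libraries, and over all tested intervals they called 4.95% to 7.63% in Ctrl and 9.68% to 15.0% in Paused. Of the 21 Ctrl calls 8 held whichever library was left out, and of the 28 Paused calls also 8. Under all 22 refits of the same intervals (12 without 1 library and 10 with another scaling, pseudocount, filter, grouping, block or test) 7 Ctrl calls and 6 Paused calls held. By direction, 2 of 15 higher and 5 of 6 lower calls held in Ctrl, and 3 of 17 and 3 of 11 in Paused. Size factors, TMM factors, edgeR and DESeq2 are among the 10 and gave more lower than higher calls over the whole tables. The 7 in Ctrl were 2 at Ppard, 1 at Rxra, 2 at Ppargc1a and 2 at Ppargc1b. In Paused they were 2 at Ppard and 1 each at Rxra, Rxrg, Ppargc1a and Ppargc1b. Of these, 5 matched pairs held in both treatments. The 2 Ppard elements and the Ppargc1b element were less accessible in both knockout lines, and the Rxra and Ppargc1a elements were more accessible.

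**Figure D2:**
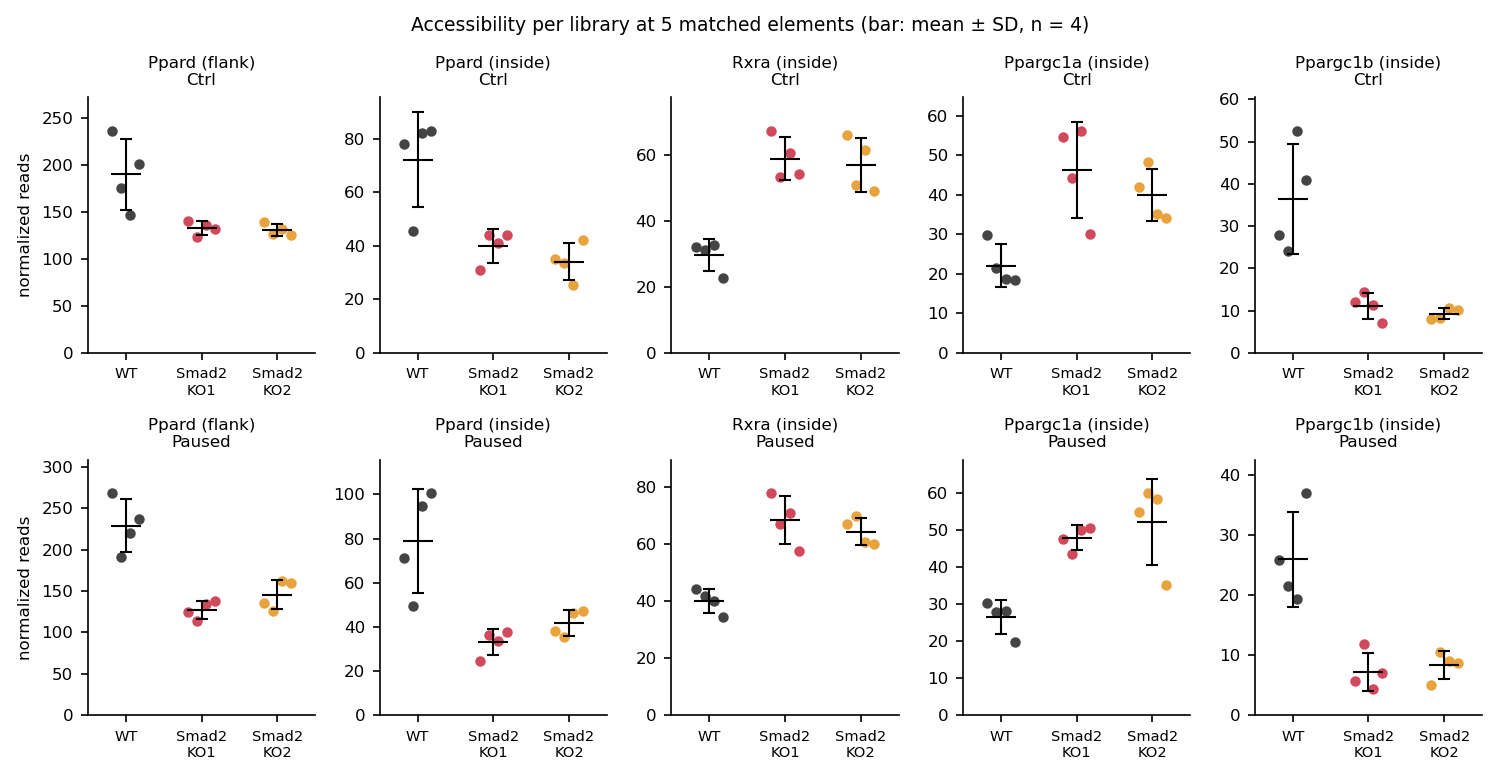
Normalized reads per library (points, replicates 1 to 4 from left to right) at the 5 elements whose call held under every refit in both Ctrl (top) and Paused (bottom), with mean ± SD over 4 libraries. In each panel all 8 knockout libraries lie on one side of the 4 WT libraries.

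Pparg showed an accessible start with no call in either table and downstream elements that were more accessible in the knockout lines. The second of its 3 annotated starts (chromosome 6, 115362349) was the most accessible place in the region. The other starts, at 115361144 and 115422066, had no interval within 500 bases in either table. The Ctrl interval at 115362035 to 115362235, 114 bases from the second start, had 68.4, 84.2, 64.6 and 84.1 normalized reads in WT replicates 1 to 4, 71.0, 69.9, 72.2 and 90.1 in Smad2_KO1 and 75.2, 81.9, 77.6 and 61.4 in Smad2_KO2. The lines overlapped, with log2 fold changes of 0.01 in Smad2_KO1 and -0.02 in Smad2_KO2 (limma, SE 0.14, adjusted p 0.973 and 0.941). The Paused interval at 115362155 to 115362355, which covers the start, had 153, 157, 149 and 179 normalized reads in WT replicates 1 to 4, 161, 153, 158 and 144 in Smad2_KO1 and 123, 150.0, 169.5 and 149 in Smad2_KO2. Here too the lines overlapped, with -0.05 in Smad2_KO1 and -0.11 in Smad2_KO2 (limma, SE 0.11, adjusted p 0.791 and 0.479). The higher Paused values come from another interval and another normalization, and were not compared with Ctrl.

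Beyond the 3′ end of the gene, an element 2766 bases after the body (chromosome 6, 115493170 to 115493370) was higher in both knockout lines without inhibitor. It had 9.61, 11.6, 4.38 and 4.31 normalized reads in WT replicates 1 to 4, 14.5, 19.5, 17.8 and 16.2 in Smad2_KO1 and 17.0, 15.5, 13.8 and 15.1 in Smad2_KO2. All knockout libraries lay above all WT libraries, and the log2 fold changes were 1.19 in Smad2_KO1 and 1.05 in Smad2_KO2 (limma, SE 0.30, adjusted p 0.00611 and 0.0164). This call was lost without WT replicates 3 or 4 or Smad2_KO2 replicate 1 (larger adjusted p 0.0523 to 0.0690) and under DESeq2 (0.140). The matched Paused interval (115493118 to 115493318) was also called, at 0.96 in Smad2_KO1 and 0.81 in Smad2_KO2 (limma, SE 0.29, adjusted p 0.0179 and 0.0446), but its groups overlapped and the call was lost without WT replicates 1 or 4, Smad2_KO1 replicates 1, 2, 3 or 4 or Smad2_KO2 replicates 2, 3 or 4 (larger adjusted p 0.0501 to 0.153) and under DESeq2 size factors, TMM factors, edgeR and DESeq2 (0.0686 to 0.238).

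A stronger downstream element (Paused 115499593 to 115499793, 9189 bases after the body) was called higher in Paused. It had 74.5, 77.3, 52.9 and 70.2 normalized reads in WT replicates 1 to 4, 76.0, 101, 94.2 and 89.4 in Smad2_KO1 and 89.9, 87.0, 95.4 and 87.5 in Smad2_KO2. The log2 fold changes were 0.39 in Smad2_KO1 and 0.40 in Smad2_KO2 (limma, SE 0.13, adjusted p 0.0332 and 0.0311). Smad2_KO1 replicate 1 (76.0) lay below WT replicate 2 (77.3), so the groups overlapped. The call was lost without WT replicate 3, Smad2_KO1 replicates 2, 3 or 4 or Smad2_KO2 replicates 1, 2 or 3 (larger adjusted p 0.0555 to 0.145) and under DESeq2 size factors, TMM factors, edgeR and DESeq2 (0.109 to 0.253). In Ctrl the matched interval (115499600) passed in Smad2_KO1 alone, at 0.60 and 0.34 (limma adjusted p 0.0122 and 0.183). Another element (115503625 to 115503825) had 5.91 ± 1.42 normalized reads in WT, against 15.1 ± 3.60 in Smad2_KO1 and 13.0 ± 1.68 in Smad2_KO2 (mean ± SD of 4) and no overlap in Paused, at 1.21 in Smad2_KO1 and 1.04 in Smad2_KO2 (limma, SE 0.31, adjusted p 0.00545 and 0.0166). Its call was lost without Smad2_KO2 replicate 1 (larger adjusted p 0.0527) and under DESeq2 (0.105). In all, 1 of 10 tested Pparg intervals was called in Ctrl and 3 of 9 in Paused, each of them higher and each downstream of the body.

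**Figure D3:**
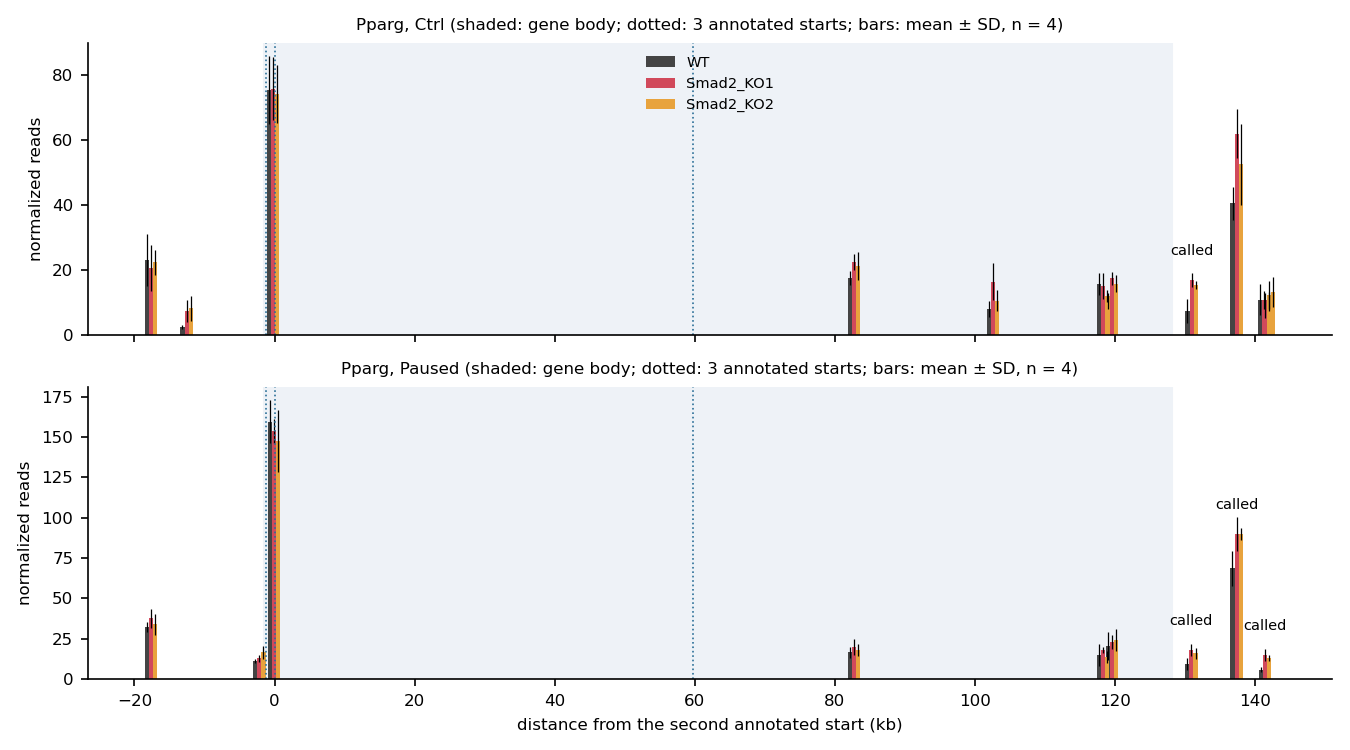
Mean ± SD (n = 4) of normalized reads at each deposited interval in and around Pparg, by distance from the second annotated start (kb), in Ctrl (top) and Paused (bottom); the body is shaded and the 3 starts are dotted. The strongest signal is at the second start, where the lines overlap, and the intervals marked as called lie beyond the right end of the body.

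Ppara had no called interval among 14 tested in Ctrl and 1 among 17 in Paused. Its start (chromosome 15, 85735776) lay 268 bases from a strong interval at 85735308 to 85735508 in both tables. In Ctrl that interval had 202, 181, 139 and 229 normalized reads in WT replicates 1 to 4, 198, 119, 175 and 167 in Smad2_KO1 and 200.4, 177, 181 and 181 in Smad2_KO2. The lines overlapped, at -0.18 in Smad2_KO1 and 0.00 in Smad2_KO2 (limma, SE 0.12, adjusted p 0.353 and 0.999). In Paused it had 309.8 ± 65.1 normalized reads in WT, against 276 ± 17.0 in Smad2_KO1 and 259 ± 13.2 in Smad2_KO2 (mean ± SD of 4), at -0.15 in Smad2_KO1 and -0.24 in Smad2_KO2 (limma, SE 0.10, adjusted p 0.328 and 0.0984). It missed the threshold, and among the fits run it was called only without WT replicate 3 (larger adjusted p 0.0408). The 1 Paused call, inside the body at 85800956 to 85801156, was weak, with 7.46 ± 2.49 normalized reads in WT, against 14.4 ± 4.47 in Smad2_KO1 and 16.3 ± 2.73 in Smad2_KO2 (mean ± SD of 4) and 0.88 in Smad2_KO1 and 1.08 in Smad2_KO2 (limma, SE 0.31, adjusted p 0.0404 and 0.0124). It was lost without WT replicate 4 or Smad2_KO1 replicates 2 or 3 (larger adjusted p 0.121 to 0.152) and under DESeq2 size factors, TMM factors, edgeR and DESeq2 (0.0614 to 0.171). The strongest Ctrl interval of the region (85811639 to 85811839) lay in the neighbouring gene Cdpf1 and was not called, at -0.29 in Smad2_KO1 and -0.12 in Smad2_KO2 (limma, SE 0.11, adjusted p 0.0625 and 0.498).

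Ppard carried the clearest loss of accessibility among the PPAR genes. An element inside the gene body (chromosome 17, 28257134 to 28257334), 24380 bases past the start, was about 1 log2 unit lower in both knockout lines and both treatments. In Ctrl it had 78.0, 45.7, 82.1 and 83.0 normalized reads in WT replicates 1 to 4, 30.8, 44.2, 41.2 and 43.9 in Smad2_KO1 and 35.1, 33.7, 25.5 and 42.3 in Smad2_KO2. All knockout libraries lay below the lowest WT library, replicate 2, and the log2 fold changes were -0.81 in Smad2_KO1 and -1.04 in Smad2_KO2 (limma, SE 0.18, adjusted p 0.00187 and 8.53e-05). In Paused (28257126 to 28257326) it had 71.2, 49.4, 94.9 and 101 normalized reads in WT replicates 1 to 4, 24.7, 36.3, 33.7 and 37.7 in Smad2_KO1 and 38.0, 35.3, 46.0 and 47.0 in Smad2_KO2. WT replicate 2 was again the lowest WT library and still lay above every knockout library, at -1.20 in Smad2_KO1 and -0.87 in Smad2_KO2 (limma, SE 0.18, adjusted p 1.53e-05 and 0.000866). The calls held in every fit that left out 1 library, with a larger adjusted p of at most 0.0191 in Ctrl and 0.00655 in Paused.

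The other lasting Ppard change lay 14594 bases upstream of the gene, inside the body of the neighbour Def6 (chromosome 17, 28217960 to 28218160). In Ctrl it had 236, 175, 147 and 201 normalized reads in WT replicates 1 to 4, 140.2, 123, 136 and 132 in Smad2_KO1 and 139, 127, 132 and 125 in Smad2_KO2. Every knockout library lay below every WT library, at -0.49 in Smad2_KO1 and -0.51 in Smad2_KO2 (limma, SE 0.12, adjusted p 0.00354 and 0.00233). In Paused (28217954 to 28218154) it had 269, 191, 220.1 and 237 normalized reads in WT replicates 1 to 4, 124, 113, 134 and 138 in Smad2_KO1 and 136, 126, 162 and 159.7 in Smad2_KO2. The groups did not overlap, at -0.84 in Smad2_KO1 and -0.65 in Smad2_KO2 (limma, SE 0.11, adjusted p 2.04e-06 and 8.96e-05). An interval in a neighbouring gene is a member by distance alone, and which gene it serves was not measured.

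At the start of Ppard (28232754), which an interval covers in both tables, no call was made. The Ctrl interval (28232569 to 28232769) had 258 ± 26.2 normalized reads in WT, against 229.8 ± 25.8 in Smad2_KO1 and 251 ± 43.0 in Smad2_KO2 (mean ± SD of 4) and log2 fold changes of -0.17 in Smad2_KO1 and -0.05 in Smad2_KO2 (limma, SE 0.11, adjusted p 0.321 and 0.812). The Paused interval (28232573 to 28232773) had 419, 326, 309.6 and 413 normalized reads in WT replicates 1 to 4, 319, 305, 283 and 291 in Smad2_KO1 and 289, 282, 306 and 351 in Smad2_KO2, and the lines overlapped. It passed in Smad2_KO1 and missed in Smad2_KO2, at -0.28 in Smad2_KO1 and -0.25 in Smad2_KO2 (limma, SE 0.09, adjusted p 0.0325 and 0.0576). It was called with size factors, TMM factors, edgeR, DESeq2, the replicate block and the 8 knockout libraries as 1 group, and when WT replicate 2, or 3, or Smad2_KO2 replicate 4 was left out (larger adjusted p 0.0106 to 0.0320). The interval lies in the top decile of levels, where the median of all Paused intervals was -0.14.

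Further strong Ppard intervals were also lower in Paused. The interval at 28224164 to 28224364 in Def6 had 567 ± 53.5 normalized reads in WT, against 459 ± 39.7 in Smad2_KO1 and 451 ± 29.3 in Smad2_KO2 (mean ± SD of 4) with no overlap, at -0.30 in Smad2_KO1 and -0.33 in Smad2_KO2 (limma, SE 0.08, adjusted p 0.00693 and 0.00380). Its call was lost without Smad2_KO1 replicate 2 (larger adjusted p 0.050002). The strongest interval of the region, at 28313349 to 28313549 in Fance, had 574 ± 49.0 normalized reads in WT, against 479.9 ± 16.8 in Smad2_KO1 and 463 ± 41.3 in Smad2_KO2 (mean ± SD of 4) and no overlap, at -0.26 in Smad2_KO1 and -0.31 in Smad2_KO2 (limma, SE 0.08, adjusted p 0.0188 and 0.00474). That call was lost without WT replicate 4 or Smad2_KO1 replicate 2 (larger adjusted p 0.0707 to 0.0774). Another, at 28226133 to 28226333 in Def6, had 314 ± 30.6 normalized reads in WT, against 259 ± 22.9 in Smad2_KO1 and 251 ± 12.0 in Smad2_KO2 (mean ± SD of 4) with overlapping groups, at -0.27 in Smad2_KO1 and -0.32 in Smad2_KO2 (limma, SE 0.09, adjusted p 0.0297 and 0.0128), and its call was lost without WT replicates 1 or 4, Smad2_KO1 replicates 1 or 4 or Smad2_KO2 replicate 3 (larger adjusted p 0.0546 to 0.103). All 3 are in the top decile of levels, where the median of all Paused intervals was -0.14. In Ctrl the Fance interval (28313344 to 28313544) was not called, at -0.11 in Smad2_KO1 and -0.08 in Smad2_KO2 (limma, SE 0.09, adjusted p 0.443 and 0.618).

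Higher calls at Ppard differed between the tables. In Ctrl an intragenic interval at 28292750 to 28292950 had 19.3 ± 7.16 normalized reads in WT, against 35.4 ± 1.38 in Smad2_KO1 and 41.8 ± 9.16 in Smad2_KO2 (mean ± SD of 4) and did not overlap, at 0.91 in Smad2_KO1 and 1.11 in Smad2_KO2 (limma, SE 0.21, adjusted p 0.00221 and 0.000200). The call held in all 12 fits that each left out 1 library (larger adjusted p at most 0.0167) and was lost under DESeq2 (0.0538). Its matched Paused interval was not called, with a mean log2 fold change of 0.16. In Paused the interval at 28272908 to 28273108 had 7.77 ± 2.91 normalized reads in WT, against 25.8 ± 7.44 in Smad2_KO1 and 16.8 ± 4.69 in Smad2_KO2 (mean ± SD of 4), at 1.63 in Smad2_KO1 and 1.05 in Smad2_KO2 (limma, SE 0.29, adjusted p 0.000121 and 0.00915). That call held in all 12 fits that each left out 1 library (larger adjusted p at most 0.0474) and was lost under DESeq2 (0.0615). A Ctrl interval at 28267329 to 28267529 overlapped between the groups, at 0.50 in Smad2_KO1 and 0.73 in Smad2_KO2 (limma, SE 0.16, adjusted p 0.0335 and 0.00179), and its call was lost without WT replicates 1 or 2 or Smad2_KO1 replicates 1 or 2 (larger adjusted p 0.0758 to 0.140) and under DESeq2 size factors, TMM factors, edgeR and DESeq2 (0.0737 to 0.203). Whether these changes differ between the treatments was not tested. In all, Ppard had 2 higher and 2 lower calls among 42 tested Ctrl intervals, and 2 higher and 5 lower among 35 in Paused.

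Among the RXR genes, Rxra held 1 element whose gain was steady across libraries. The element (chromosome 2, 27703402 to 27703602) lies inside the body, 5690 bases from the nearest annotated start. Without inhibitor it had 32.0, 31.4, 32.9 and 22.7 normalized reads in WT replicates 1 to 4, 67.5, 53.5, 60.9 and 54.3 in Smad2_KO1 and 66.1, 51.0, 61.6 and 49.3 in Smad2_KO2. The lowest knockout library lay far above the highest WT library, at 0.97 in Smad2_KO1 and 0.92 in Smad2_KO2 (limma, SE 0.17, adjusted p 5.83e-05 and 0.000136). In Paused (27703412 to 27703612) it had 44.3, 41.9, 39.9 and 34.4 normalized reads in WT replicates 1 to 4, 77.9, 67.1, 70.8 and 57.6 in Smad2_KO1 and 66.9, 69.7, 60.6 and 60.2 in Smad2_KO2. The groups again stood apart, at 0.75 in Smad2_KO1 and 0.67 in Smad2_KO2 (limma, SE 0.15, adjusted p 0.000383 and 0.00131). The call held in every fit without 1 library in both tables, with a larger adjusted p of at most 0.00184 and 0.00824.

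Weaker Rxra intervals were also called higher in Ctrl. One at 27704035 to 27704235, next to that element, had 6.92 ± 0.483 normalized reads in WT, against 16.3 ± 3.14 in Smad2_KO1 and 15.5 ± 3.41 in Smad2_KO2 (mean ± SD of 4) and no overlap, at 1.11 in Smad2_KO1 and 1.04 in Smad2_KO2 (limma, SE 0.29, adjusted p 0.00759 and 0.0136). Its call was lost without Smad2_KO2 replicate 3 (larger adjusted p 0.0647) and under DESeq2 (0.0830). One at 27718785 to 27718985 had 8.37 ± 1.85 normalized reads in WT, against 17.4 ± 3.45 in Smad2_KO1 and 17.5 ± 3.31 in Smad2_KO2 (mean ± SD of 4), at 0.98 in Smad2_KO1 and 0.99 in Smad2_KO2 (limma, SE 0.27, adjusted p 0.0140 and 0.0139), and its call was lost without Smad2_KO1 replicate 3 or Smad2_KO2 replicate 3 (larger adjusted p 0.0504 to 0.0647) and under DESeq2 (0.0995). An interval 9428 bases upstream of the body (27666817 to 27667017) was called in Ctrl with log2 fold changes of 1.12 in Smad2_KO1 and 1.30 in Smad2_KO2 (limma, SE 0.34, adjusted p 0.0223 and 0.00829) and, at 27666781 to 27666981, in Paused at 0.67 in Smad2_KO1 and 0.71 in Smad2_KO2 (limma, SE 0.24, adjusted p 0.0412 and 0.0314), with overlapping groups in both. The Ctrl call was lost without WT replicate 4 or Smad2_KO1 replicates 1 or 4 (larger adjusted p 0.0510 to 0.130) and under edgeR and DESeq2 (0.0809 to 0.188). The Paused call was lost without WT replicates 3 or 4, Smad2_KO1 replicates 1, 2 or 4 or Smad2_KO2 replicates 1, 2 or 3 (larger adjusted p 0.0645 to 0.149) and under DESeq2 size factors, TMM factors, edgeR and DESeq2 (0.0760 to 0.230).

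The strongest Rxra interval went the other way. At 27740326 to 27740526 in Paused it had 215, 188, 168 and 201 normalized reads in WT replicates 1 to 4, 131, 170.4, 162 and 147 in Smad2_KO1 and 149.8, 145, 163 and 143 in Smad2_KO2. WT replicate 3 (168) lay below Smad2_KO1 replicate 2 (170.4), so the groups overlapped, and the log2 fold changes were -0.34 in Smad2_KO1 and -0.35 in Smad2_KO2 (limma, SE 0.11, adjusted p 0.0207 and 0.0158). The call was lost without WT replicate 1 or Smad2_KO1 replicate 1 (larger adjusted p 0.0704 to 0.102). In Ctrl the same place (27740324 to 27740524) was not called, at -0.27 in Smad2_KO1 and -0.19 in Smad2_KO2 (limma, SE 0.12, adjusted p 0.148 and 0.352). Neither annotated Rxra start (27677201 and 27709292) had an interval within 500 bases. Rxra had 4 higher calls among 30 tested in Ctrl, and 2 higher and 1 lower among 28 in Paused.

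Rxrb, a short gene in a gene-dense stretch of the major histocompatibility region, had no single interval whose call held throughout, while its summed region was lower in Paused, as given with the region sums. Of its 19 intervals in each table, 14 lay in the body of another gene, among them Ring1, H2-Ke6 and Slc39a7. The strongest interval of the region, in H2-Ke6 (chromosome 17, 34028005 to 34028205), was lower in Paused. It had 556, 403, 447 and 555 normalized reads in WT replicates 1 to 4, 405, 407, 381 and 423 in Smad2_KO1 and 395, 369.7, 357 and 385 in Smad2_KO2. WT replicate 2 (402.5) lay among the knockout libraries, so the groups overlapped, and the changes were -0.27 in Smad2_KO1 and -0.37 in Smad2_KO2 (limma, SE 0.09, adjusted p 0.0278 and 0.00286). That call was lost without WT replicates 1 or 4 or Smad2_KO1 replicates 1, 2 or 3 (larger adjusted p 0.0598 to 0.125). In Ctrl (34028003 to 34028203) it was not called, at -0.15 in Smad2_KO1 and -0.12 in Smad2_KO2 (limma, SE 0.09, adjusted p 0.322 and 0.422).

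An interval inside Rxrb (34034208 to 34034408) did part the groups in Paused, with 153 ± 20.7 normalized reads in WT, against 113 ± 3.83 in Smad2_KO1 and 123 ± 7.61 in Smad2_KO2 (mean ± SD of 4). Its log2 fold changes were -0.42 in Smad2_KO1 and -0.31 in Smad2_KO2 (limma, SE 0.11, adjusted p 0.00637 and 0.0441), and the call was lost without WT replicates 1 or 2, Smad2_KO1 replicates 1, 2 or 3 or Smad2_KO2 replicates 2, 3 or 4 (larger adjusted p 0.0503 to 0.185) and under library-total scaling (0.0680). At the first Rxrb start (34031812) the Ctrl interval (34031606 to 34031806) had 243 ± 55.3 normalized reads in WT, against 230.0 ± 52.7 in Smad2_KO1 and 212 ± 9.24 in Smad2_KO2 (mean ± SD of 4) and was not called, at -0.08 in Smad2_KO1 and -0.17 in Smad2_KO2 (limma, SE 0.12, adjusted p 0.725 and 0.395). The Paused interval (34031622 to 34031822) had 323 ± 62.2 normalized reads in WT, against 273 ± 11.6 in Smad2_KO1 and 261 ± 14.9 in Smad2_KO2 (mean ± SD of 4), at -0.22 in Smad2_KO1 and -0.28 in Smad2_KO2 (limma, SE 0.10, adjusted p 0.106 and 0.0356). It was called with size factors, TMM factors, edgeR, DESeq2 and the 8 knockout libraries as 1 group, and without WT replicate 2 or WT replicate 3 (larger adjusted p 0.0185 to 0.0466). The 1 higher Rxrb call, in Ring1 in Ctrl (34021623 to 34021823), had log2 fold changes of 0.66 in Smad2_KO1 and 0.65 in Smad2_KO2 (limma, SE 0.22, adjusted p 0.0405 and 0.0452) and was lost without WT replicates 2, 3 or 4, Smad2_KO1 replicates 1, 2 or 3 or Smad2_KO2 replicates 1, 2, 3 or 4 (larger adjusted p 0.0508 to 0.155) and under DESeq2 size factors, TMM factors, edgeR and DESeq2 (0.0654 to 0.228).

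Rxrg, the RXR gene of muscle and brain, gained accessibility downstream of its body in both treatments. An element 9948 bases beyond the body (chromosome 1, 167649571 to 167649771) was the steadiest. In Paused it had 21.6, 25.8, 24.8 and 29.1 normalized reads in WT replicates 1 to 4, 54.2, 58.9, 48.4 and 50.7 in Smad2_KO1 and 48.9, 54.0, 42.7 and 32.8 in Smad2_KO2. Every knockout library lay above every WT library, at 1.04 in Smad2_KO1 and 0.78 in Smad2_KO2 (limma, SE 0.17, adjusted p 5.75e-05 and 0.00167), and the call held in all 12 fits that each left out 1 library (larger adjusted p at most 0.0152). In Ctrl (167649565 to 167649765) it had 35.3, 29.6, 20.8 and 19.4 normalized reads in WT replicates 1 to 4, 41.9, 50.4, 47.8 and 40.4 in Smad2_KO1 and 35.1, 53.7, 35.1 and 42.3 in Smad2_KO2. There Smad2_KO2 replicates 1 and 3 lay just under WT replicate 1, at 0.79 in Smad2_KO1 and 0.66 in Smad2_KO2 (limma, SE 0.19, adjusted p 0.00362 and 0.0170). The Ctrl call was lost without WT replicates 3 or 4 or Smad2_KO2 replicate 2 (larger adjusted p 0.0602 to 0.103) and under DESeq2 (0.109).

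A neighbouring element 7737 bases beyond the body (167647360 to 167647560) was called in both tables with no overlap in either. It had 18.5 ± 3.01 normalized reads in WT, against 33.6 ± 6.87 in Smad2_KO1 and 28.9 ± 3.26 in Smad2_KO2 (mean ± SD of 4) in Ctrl, at 0.82 in Smad2_KO1 and 0.63 in Smad2_KO2 (limma, SE 0.21, adjusted p 0.00529 and 0.0381). In Paused (167647357 to 167647557) it had 17.0 ± 2.77 normalized reads in WT, against 33.9 ± 6.07 in Smad2_KO1 and 27.1 ± 5.27 in Smad2_KO2 (mean ± SD of 4), at 0.95 in Smad2_KO1 and 0.64 in Smad2_KO2 (limma, SE 0.21, adjusted p 0.00146 and 0.0294). The Ctrl call was lost without WT replicates 1 or 4 or Smad2_KO2 replicates 1, 2 or 3 (larger adjusted p 0.0621 to 0.117) and under DESeq2 size factors, TMM factors, edgeR and DESeq2 (0.0546 to 0.207). The Paused call was lost without WT replicate 2 or Smad2_KO2 replicates 2 or 3 (larger adjusted p 0.0545 to 0.123) and under DESeq2 size factors, TMM factors, edgeR and DESeq2 (0.0548 to 0.191). The element at 167641398 to 167641598 was higher in Paused, with 9.11 ± 0.985 normalized reads in WT, against 18.9 ± 1.73 in Smad2_KO1 and 19.6 ± 3.48 in Smad2_KO2 (mean ± SD of 4), at 0.98 in Smad2_KO1 and 1.01 in Smad2_KO2 (limma, SE 0.25, adjusted p 0.00579 and 0.00440). Its call held in all 12 fits that each left out 1 library (larger adjusted p at most 0.0259) and was lost under DESeq2 (0.0603). An intragenic interval at 167612705 to 167612905 was called in Ctrl, at 1.10 in Smad2_KO1 and 0.88 in Smad2_KO2 (limma, SE 0.28, adjusted p 0.00751 and 0.0366), and was lost without WT replicates 1, 3 or 4 or Smad2_KO2 replicates 1, 2 or 3 (larger adjusted p 0.0598 to 0.111) and under edgeR and DESeq2 (0.0702 to 0.199).

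The starts of Rxrg differed. At the upstream start (167598362), the Ctrl interval (167598403 to 167598603) had 115 ± 13.5 normalized reads in WT, against 101 ± 10.8 in Smad2_KO1 and 93.5 ± 9.24 in Smad2_KO2 (mean ± SD of 4), at -0.18 in Smad2_KO1 and -0.29 in Smad2_KO2 (limma, SE 0.13, adjusted p 0.374 and 0.129), and the Paused interval (167598326 to 167598526) had 139.5 ± 18.5 normalized reads in WT, against 140.0 ± 12.7 in Smad2_KO1 and 141 ± 14.6 in Smad2_KO2 (mean ± SD of 4), at 0.01 in Smad2_KO1 and 0.02 in Smad2_KO2 (limma, SE 0.11, adjusted p 0.961 and 0.917). Neither was called. At the downstream start (167618265), whose window is printed above with 1 AGGTCA and 2 CAGAC, the Paused interval (167618114 to 167618314) had 30.2, 31.1, 31.3 and 22.5 normalized reads in WT replicates 1 to 4, 42.8, 48.9, 45.8 and 34.8 in Smad2_KO1 and 52.9, 42.8, 43.8 and 53.6 in Smad2_KO2. Every knockout library was above every WT library, at 0.57 in Smad2_KO1 and 0.73 in Smad2_KO2 (limma, SE 0.17, adjusted p 0.0181 and 0.00271). The call was lost without WT replicate 4 or Smad2_KO1 replicates 2 or 3 (larger adjusted p 0.0555 to 0.0730) and under edgeR and DESeq2 (0.0554 to 0.162). In Ctrl the interval there (167618177 to 167618377) had 22.4, 33.1, 26.3 and 31.3 normalized reads in WT replicates 1 to 4, 21.4, 47.3, 28.1 and 26.6 in Smad2_KO1 and 31.1, 29.1, 30.8 and 29.2 in Smad2_KO2. Those groups overlapped, at 0.08 in Smad2_KO1 and 0.10 in Smad2_KO2 (limma, SE 0.20, adjusted p 0.856 and 0.811). Whether the knockout change at this start differs between the treatments was not tested, because the tables were normalized separately. The strongest Ctrl interval of the region, at 167645013 to 167645213, had log2 fold changes of 0.06 in Smad2_KO1 and 0.09 in Smad2_KO2 (limma, SE 0.11, adjusted p 0.776 and 0.646) and was not called. Rxrg had 3 higher calls among 23 tested in Ctrl, and 4 higher and 1 lower among 21 in Paused.

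Ppargc1a encodes PGC-1α, the inducible coactivator of mitochondrial biogenesis. Its body spans 661.6 kb, and 1 element inside it, towards its lower-coordinate end, was more accessible in the knockout lines in both treatments. In Ctrl this element (chromosome 5, 51494445 to 51494645) had 29.9, 21.5, 18.6 and 18.3 normalized reads in WT replicates 1 to 4, 54.7, 44.2, 56.2 and 30.03 in Smad2_KO1 and 42.1, 48.2, 35.1 and 34.2 in Smad2_KO2. Smad2_KO1 replicate 4 lay just above WT replicate 1, so the groups did not overlap but nearly met, at 1.02 in Smad2_KO1 and 0.84 in Smad2_KO2 (limma, SE 0.20, adjusted p 0.000362 and 0.00337). In Paused (51494441 to 51494641) it had 30.2, 27.9, 28.1 and 19.9 normalized reads in WT replicates 1 to 4, 47.5, 43.5, 50.1 and 50.7 in Smad2_KO1 and 54.9, 60.0, 58.4 and 35.0 in Smad2_KO2. The groups stood apart, at 0.85 in Smad2_KO1 and 0.93 in Smad2_KO2 (limma, SE 0.18, adjusted p 0.000917 and 0.000325). The calls held in every fit without 1 library, with a larger adjusted p of at most 0.0251 in Ctrl and 0.00523 in Paused.

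Another Ppargc1a element was lower. In Ctrl the interval at 51989479 to 51989679 had 36.3, 36.7, 67.9 and 43.1 normalized reads in WT replicates 1 to 4, 22.2, 27.8, 20.6 and 23.1 in Smad2_KO1 and 30.1, 20.0, 12.8 and 22.1 in Smad2_KO2. No knockout library reached the lowest WT library, and WT replicate 3 stood above the other WT libraries, at -0.91 in Smad2_KO1 and -1.09 in Smad2_KO2 (limma, SE 0.22, adjusted p 0.00402 and 0.000571). The call held in all 12 fits that each left out 1 library (larger adjusted p at most 0.0399). The matched Paused interval (51989490) was not called, with a mean log2 fold change of -0.52, although its groups did not overlap. An interval at 52015845 to 52016045 was called lower in Ctrl at -1.63 in Smad2_KO1 and -0.97 in Smad2_KO2 (limma, SE 0.33, adjusted p 0.000677 and 0.0493), which was lost without WT replicates 1, 3 or 4, Smad2_KO1 replicate 1 or Smad2_KO2 replicates 1, 2, 3 or 4 (larger adjusted p 0.0508 to 0.180) and under library-total scaling, a pseudocount of 0.1 and DESeq2 (0.0536 to 0.0612). One at 51452110 to 51452310, 1939 bases below the body, was called higher in Ctrl at 0.97 in Smad2_KO1 and 1.11 in Smad2_KO2 (limma, SE 0.33, adjusted p 0.0467 and 0.0227), which was lost without WT replicates 1 or 4, Smad2_KO1 replicates 1, 2, 3 or 4 or Smad2_KO2 replicates 1, 2 or 4 (larger adjusted p 0.0515 to 0.185) and under DESeq2 size factors, TMM factors, edgeR and DESeq2 (0.0653 to 0.260). In Paused a weak interval at 51935043 to 51935243 had 0, 4.29, 8.63 and 5.30 normalized reads in WT replicates 1 to 4, 11.4, 18.1, 11.2 and 10.9 in Smad2_KO1 and 11.0, 11.3, 15.7 and 10.9 in Smad2_KO2. No WT library reached 10, so the interval met the filter through its knockout libraries alone. WT replicate 1 is at 0 there, the changes were 1.69 in Smad2_KO1 and 1.63 in Smad2_KO2 (limma, SE 0.44, adjusted p 0.00598 and 0.00797), and the call was lost without WT replicate 1 (larger adjusted p 0.0619) and under DESeq2 (0.0601).

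The strongest Ppargc1a interval lay just outside the 5′ end of the annotated body, and the lines overlapped there. It had 309.7 ± 29.4 normalized reads in WT, against 285 ± 45.3 in Smad2_KO1 and 289.7 ± 32.0 in Smad2_KO2 (mean ± SD of 4) in Ctrl (52116092 to 52116292), at -0.13 in Smad2_KO1 and -0.10 in Smad2_KO2 (limma, SE 0.10, adjusted p 0.436 and 0.585). In Paused (52116079 to 52116279) it had 407 ± 72.0 normalized reads in WT, against 378 ± 19.2 in Smad2_KO1 and 389 ± 22.0 in Smad2_KO2 (mean ± SD of 4), at -0.09 in Smad2_KO1 and -0.05 in Smad2_KO2 (limma, SE 0.09, adjusted p 0.506 and 0.727). The annotated RefSeq start in the promoter table (51567725, minus strand) had no interval within 500 bases, and the nearest was 13713 bases away. Ppargc1a had 2 higher and 2 lower calls among 32 tested in Ctrl and 2 higher among 27 in Paused.

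Ppargc1b encodes PGC-1β, the relative of PGC-1α. Of all tested member intervals, 2 inside this gene fell furthest in both tables. An intragenic element (chromosome 18, 61336670 to 61336870) had 27.8, 24.2, 52.6 and 41.0 normalized reads in WT replicates 1 to 4, 12.0, 14.4, 11.2 and 6.93 in Smad2_KO1 and 8.02, 8.19, 10.6 and 10.1 in Smad2_KO2 in Ctrl. The highest knockout library (14.4) was well below the lowest WT library (24.2), at -1.60 in Smad2_KO1 and -1.81 in Smad2_KO2 (limma, SE 0.27, adjusted p 6.04e-05 and 7.75e-06). In Paused (61336656 to 61336856) it had 25.9, 21.5, 19.4 and 37.1 normalized reads in WT replicates 1 to 4, 5.70, 11.8, 4.32 and 6.95 in Smad2_KO1 and 4.99, 10.5, 8.98 and 8.75 in Smad2_KO2. The groups stood apart, at -1.76 in Smad2_KO1 and -1.53 in Smad2_KO2 (limma, SE 0.32, adjusted p 0.000187 and 0.000888). The calls held in every fit without 1 library, with a larger adjusted p of at most 0.00141 in Ctrl and 0.00788 in Paused.

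A neighbouring element less than 1 kb away (61335925 to 61336125) changed with it. In Ctrl it had 17.1, 24.2, 31.8 and 30.2 normalized reads in WT replicates 1 to 4, 12.0, 6.17, 5.62 and 6.93 in Smad2_KO1 and 6.01, 10.0, 9.56 and 8.05 in Smad2_KO2. All knockout libraries lay below all WT libraries, at -1.64 in Smad2_KO1 and -1.50 in Smad2_KO2 (limma, SE 0.31, adjusted p 0.000211 and 0.000718), and the call held in all 12 fits that each left out 1 library (larger adjusted p at most 0.00645). In Paused (61336024 to 61336224) it had 17.8 ± 7.59 normalized reads in WT, against 7.86 ± 3.42 in Smad2_KO1 and 5.45 ± 2.08 in Smad2_KO2 (mean ± SD of 4) and overlapped, at -1.08 in Smad2_KO1 and -1.51 in Smad2_KO2 (limma, SE 0.38, adjusted p 0.0386 and 0.00461). That call was lost without WT replicates 3 or 4 or Smad2_KO1 replicates 1 or 2 (larger adjusted p 0.0803 to 0.167). Within WT, replicates 3 and 4 were above replicates 1 and 2 at both elements in Ctrl, and every knockout library lay below the lowest WT library at each.

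Higher calls at Ppargc1b were weak and were lost in fits that left out 1 library. In Ctrl the interval 12853 bases above the body (61413609 to 61413809) had 6.39 ± 2.30 normalized reads in WT, against 14.8 ± 1.23 in Smad2_KO1 and 14.5 ± 4.25 in Smad2_KO2 (mean ± SD of 4) and no overlap, at 1.16 in Smad2_KO1 and 1.09 in Smad2_KO2 (limma, SE 0.32, adjusted p 0.0112 and 0.0182). Its call was lost without WT replicate 1 or Smad2_KO2 replicate 3 (larger adjusted p 0.0813 to 0.0895) and under DESeq2 (0.0978). The Ctrl interval at 61318241 to 61318441 had log2 fold changes of 0.94 in Smad2_KO1 and 0.96 in Smad2_KO2 (limma, SE 0.33, adjusted p 0.0476 and 0.0460), and its call was lost without WT replicates 2 or 3, Smad2_KO1 replicates 1, 2 or 3 or Smad2_KO2 replicates 1, 2, 3 or 4 (larger adjusted p 0.0580 to 0.187) and under DESeq2 size factors, TMM factors, edgeR and DESeq2 (0.0692 to 0.221). In Paused the interval at 61281898 to 61282098, in Pde6a, had log2 fold changes of 0.77 in Smad2_KO1 and 0.70 in Smad2_KO2 (limma, SE 0.22, adjusted p 0.0134 and 0.0239), and its call was lost without WT replicate 1 or Smad2_KO2 replicates 2 or 3 (larger adjusted p 0.0717 to 0.138) and under edgeR and DESeq2 (0.0553 to 0.161). The one at 61299786 to 61299986 had log2 fold changes of 0.76 in Smad2_KO1 and 0.82 in Smad2_KO2 (limma, SE 0.25, adjusted p 0.0274 and 0.0175), and its call was lost without WT replicate 1, Smad2_KO1 replicates 1 or 2 or Smad2_KO2 replicates 2 or 3 (larger adjusted p 0.0581 to 0.0991) and under DESeq2 size factors, edgeR and DESeq2 (0.0508 to 0.170). The strongest interval, inside the body at 61398977 to 61399177, was not called in Ctrl, at 0.15 in Smad2_KO1 and 0.11 in Smad2_KO2 (limma, SE 0.10, adjusted p 0.379 and 0.549), or in Paused (61398978 to 61399178), at -0.07 in Smad2_KO1 and -0.08 in Smad2_KO2 (limma, SE 0.09, adjusted p 0.616 and 0.580). Ppargc1b had 2 higher and 2 lower calls among 26 tested in Ctrl, and 3 higher and 2 lower among 24 in Paused.

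Summed over each gene body with its flanks, accessibility changed little. A region was called by the same rule over all protein-coding genes, and 8.35% of 20388 regions were called in Ctrl and 27.1% of 20236 in Paused. In Ctrl limma called 0 of the 8 regions, with 2 (Pparg and Rxra) at an unadjusted p under 0.05 in both lines, and edgeR and DESeq2 were not run on regions. Pparg came nearest, with 214, 231, 206 and 229.7 normalized reads in WT replicates 1 to 4, 259.9, 279, 271 and 291 in Smad2_KO1 and 259, 266, 245 and 261 in Smad2_KO2. Every knockout library lay above every WT library, at 0.32 in Smad2_KO1 and 0.23 in Smad2_KO2 (limma, SE 0.08, adjusted p 0.00688 and 0.0626), and Smad2_KO2 missed the threshold. Pparg was called with the replicate block, with library-total scaling, with the 8 knockout libraries as 1 group and with same-numbered libraries averaged.

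In Paused the Ppard and Rxrb regions were lower, beside a median of -0.05 over all regions. Ppard had 4139, 3574, 3725 and 3845 normalized reads in WT replicates 1 to 4, 3479.6, 3348, 3419.9 and 3324 in Smad2_KO1 and 3314, 3204, 3394 and 3506 in Smad2_KO2. Every knockout library lay below every WT library, at -0.17 in Smad2_KO1 and -0.19 in Smad2_KO2 (limma, SE 0.04, adjusted p 0.00111 and 0.000342). Without the 20 kb flanks, and thus without the strong intervals in Def6 and Fance, the change was -0.07 with a larger adjusted p of 0.245, and the call was lost. Rxrb had 1806, 1434, 1419.9 and 1670.0 normalized reads in WT replicates 1 to 4, 1399, 1328, 1344 and 1373 in Smad2_KO1 and 1351, 1307, 1318 and 1359 in Smad2_KO2. The groups did not overlap, at -0.21 in Smad2_KO1 and -0.24 in Smad2_KO2 (limma, SE 0.05, adjusted p 0.00244 and 0.000579), and 14 of its 19 intervals lie in the body of another gene. The Rxrb call held in each of the alternatives run, also over the body without flanks, where the change was -0.25 (larger adjusted p 0.0271). Both directions held under size factors, TMM factors and library totals. With size factors the median over all Paused regions moved from -0.05 to -0.15. The Paused Pparg region passed in Smad2_KO1 alone, at 0.20 in Smad2_KO1 and 0.13 in Smad2_KO2 (limma, SE 0.07, adjusted p 0.0326 and 0.146), and the Rxrg region in Smad2_KO2 alone, at 0.12 in Smad2_KO1 and 0.13 in Smad2_KO2 (limma, SE 0.05, adjusted p 0.0739 and 0.0447). Rxrg was called without WT replicate 1, WT replicate 3 or Smad2_KO1 replicate 4 (larger adjusted p 0.0251 to 0.0497). It was also called with library totals (limma, larger adjusted p 0.0139). With the 8 knockout libraries as 1 group, the Paused Rxrg and Pparg regions were both called (limma adjusted p 0.0177 and 0.0256).

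**Figure D4:**
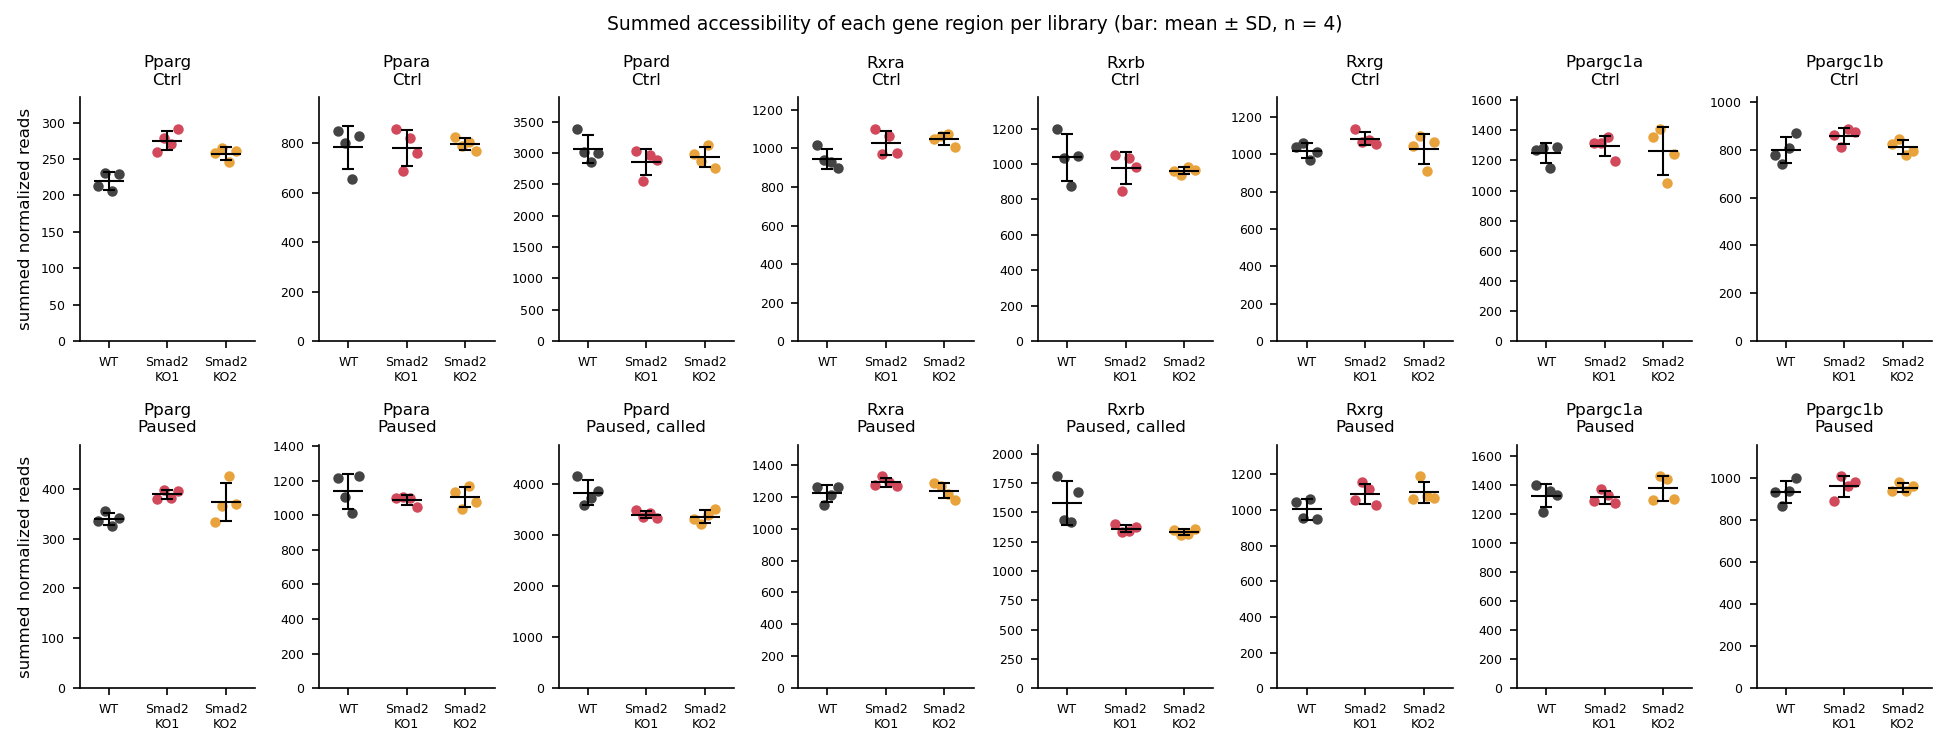
Summed normalized reads per library over each gene body with 20 kb flanks (points, replicates 1 to 4 from left to right; mean ± SD, n = 4), in Ctrl (top) and Paused (bottom). Knockout libraries lie below WT in the Paused Ppard and Rxrb panels and above WT in the Ctrl Pparg panel, and the other panels overlap.

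Set side by side, the knockout changes had the same direction in both treatments wherever both tables called them. Of the members, 144 Ctrl intervals overlapped a Paused interval by at least 50% of each. Of these pairs 14 were called in Ctrl and 23 in Paused, and 10 in both, 6 higher and 4 lower and 0 in opposite directions. The 10 are 71.4% of the Ctrl list and 43.5% of the Paused list, where over all 215826 matched pairs the shared calls were 59.2% and 32.8%. The higher ones were 1 at Pparg, 2 at Rxra, 2 at Rxrg and 1 at Ppargc1a, and the lower ones were 2 at Ppard and 2 at Ppargc1b.

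**Figure D5:**
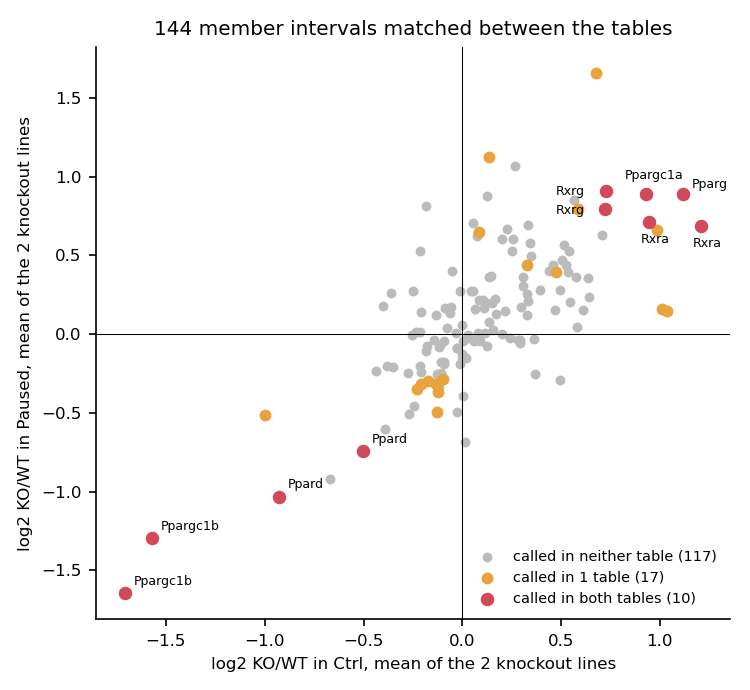
Log2 fold change of knockout over WT (mean of both lines) in Paused against that in Ctrl for the 144 matched member intervals, coloured by the number of tables that called them. The 10 intervals called in both lie in the lower left or upper right quadrant.

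Paused levels are given beside Ctrl levels as RPM (reads per megaread of the library) in matched intervals, as a description with no test, since the tables were normalized and called separately. The median log2 ratio of Paused over Ctrl at the 144 members was 0.08 (WT), 0.11 (Smad2_KO1) and 0.04 (Smad2_KO2), and over all matched intervals it was -0.08, -0.03 and -0.03. Of the members 82, 81 and 85 were above 0 in these lines. The lowest was an intragenic Rxrg interval (Ctrl 167608571), with 3.67 RPM in Ctrl WT and 1.43 in Paused WT and log2 ratios of -1.31, -0.93 and -1.27 in the 3 lines. An intragenic Ppard interval (Ctrl 28281092) had 4.79 and 9.92 RPM in WT and ratios of 1.04, 0.91 and 0.64. These 2 were chosen after their values were seen, and neither was called between knockout and WT.

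Genes that work with the members were looked at through lists chosen for this comparison. Of 587 tested Ctrl intervals at 15 PPAR coregulator genes, 24 were higher and 15 lower, and of 559 in Paused 45 and 22. Other nuclear receptors that pair with RXR (11 genes) had 5 higher and 12 lower of 246 in Ctrl, and 13 and 19 of 233 in Paused. Their summed regions were lower at 1 of 11 genes in Ctrl, Thra, where 5.0% of all regions were lower, and at 6 of 11 in Paused, where 4148 of all 20236 were. With size factors the counts were 4 and 8 of 11, beside 21.0% and 47.9% of all regions. In Paused the lower ones included Thra, the thyroid hormone receptor α gene, at -0.23 and -0.28 (limma adjusted p 0.000173 and 9.82e-06). Rarb, a retinoic acid receptor gene, was higher in Paused at 0.15 and 0.17 (limma adjusted p 0.0165 and 0.00817), a call lost with size factors and TMM factors (larger adjusted p 0.469 and 0.361). PPAR target genes (32 genes) had 13 higher and 4 lower of 440 in Ctrl, and 40 and 15 of 416 in Paused. Factors that act upstream of Pparg in fat cell formation (15 genes) had 9 higher and 13 lower of 380, and 21 and 14 of 348. The shares called were 3.86% to 6.91% in Ctrl and 10.1% to 13.7% in Paused, below the 7.15% and 13.9% of all tested intervals. At the coregulator Nrip1, a corepressor that restrains fat oxidation, the region was higher in both tables, at 0.20 and 0.20 in Ctrl (limma adjusted p 0.0136 and 0.0136) and 0.15 and 0.14 in Paused (0.0140 and 0.0254). With size factors neither Nrip1 call held (larger adjusted p 0.0786 in Ctrl and 0.538 in Paused).

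The gene regions whose summed accessibility followed that of Pparg most closely over the 12 Paused libraries were Mob2 (Pearson r = 0.90), Hus1b (0.87) and Kcmf1 (0.87), of 20235 compared. Over the 12 Ctrl libraries the same genes had r of 0.51, 0.65 and 0.39. The other members had r of -0.57 (Ppard) to 0.36 (Rxrg) in Paused. The points share the lines and the libraries' depth, and these values are a description.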

How the data were processed

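ATAC-seq was read from 24 libraries, 4 for each of 3 lines under 2 treatments. Per the submitters' processing notes the tools were FastQC, Trim Galore, Bowtie2 2.4.1, MACS3 3.0.3 and DiffBind 3.16.0 on build mm10. Duplicate removal, mitochondrial reads and the Tn5 shift are not given in the sources used here. The deposited signal is a normalized read value per interval and library, which the authors made separately for each treatment. All low values were whole multiples of 1 read within 0.1 read (100% in every library), so reads were recovered for count tests, with factors of 0.855 to 1.16 (Ctrl) and 0.750 to 1.32 (Paused). The authors' deposited log2 fold changes and their deposited p-value and FDR columns were not used for any result.

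The 8 members, the gene lists and the named intervals were chosen with earlier results of these data known. Named intervals were, per gene and table, the strongest interval, those within 500 bases of a start and up to 4 called intervals of smallest p. A further called interval in Def6 and 2 intervals of the treatment comparison were named after their values were seen. Gene bodies and starts came from RefSeq GRCm38.p6, the build of mm10. The main test was limma 3.58.1 (R 4.3.3) with a trend on log2(value + 1), over intervals with at least 10 in 4 of 12 libraries and line as the only factor. Fold changes on this scale understate the change of weak intervals. A region is the sum over a gene body with 20 kb flanks. Alternatives were edgeR 4.0.16 and DESeq2 1.42.0 on recovered reads, other scalings, a pseudocount of 0.1, no filter, other flanks, the knockout libraries as 1 group, a replicate block and leaving out each library. Averaging same-numbered knockout libraries, and the scalings for the gene lists, were added after seeing the data. On simulated data with known changes, both-line calls recovered 50% (Ctrl) and 46% (Paused) of intervals changed 2-fold, and 7% and 14% of those changed 1.5-fold. For regions 94% to 98% were recovered at these folds. Only 100 features were changed at each fold there, where 20159 Ctrl and 36293 Paused intervals were called in the data. The Benjamini-Hochberg cutoff was therefore stricter in the simulation, and recovery in the data was not measured.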

Additional observations from a re-analysis of the deposited data

Results flagged for a closer look

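In groups of 4 libraries, a library was picked out when its gap to the nearest other library, relative to the group's range, passed Dixon's 95% limit. Chance picks out about 1 in 20 groups. Among 249 groups of named intervals and gene regions, 15 were picked out, where chance would give about 12.5.

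At elements whose knockout change held in every fit, 2 libraries stood apart, both WT in Ctrl. At the Ppard element 28257134, replicate 2 had 45.68 normalized reads and the other WT libraries 77.97 to 83.04. At the Rxra element 27703402, replicate 4 had 22.65 and the others 31.35 to 32.86.

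The remaining Ctrl cases were 5. WT replicate 2 had 11.64 at Rxrg 167612705 (others 6.41 to 6.57). Smad2_KO1 replicate 4 had 90.1 at the Pparg start interval 115362035 (69.91 to 72.15) and 8.09 at Ppargc1b 61318241 (18.51 to 18.81). Smad2_KO1 replicate 3 had 117.13 at the Rxrg start interval 167598403 (93.55 to 97.03). Smad2_KO2 replicate 1 had 200.42 at the Ppara start interval 85735308 (177.47 to 181.15).

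In Paused, 3 cases were WT libraries at called Rxrg intervals. Replicate 4 had 22.51 at the downstream start 167618114 (30.22 to 31.29) and 10.59 at 167641398 (8.59 to 8.64), and replicate 2 had 12.88 at 167647357 (18.34 to 18.54). At Ppargc1a 51935043, Smad2_KO1 replicate 2 had 18.12 (10.93 to 11.4) and Smad2_KO2 replicate 3 had 15.72 (10.94 to 11.25). Smad2_KO2 replicate 3 had 273.91 at Ppargc1b 61398978 (297.64 to 298.65). For region sums, Smad2_KO1 replicate 4 had 1046.84 at Ppara (1097.47 to 1106.47) and Smad2_KO2 replicate 2 had 1187.89 at Rxrg (1062.72 to 1079.94).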

How the results depend on the processing

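No called named interval or member gene region changed sign under the alternatives run, but the split of member calls did turn. In Paused 17 higher and 11 lower became 9 and 19 with size factors, 10 and 18 with TMM factors, 7 and 19 with edgeR and 3 and 15 with DESeq2, and in Ctrl 15 and 6 became 2 and 5 with DESeq2. Of 21 member intervals called in Ctrl, the count became 32 with the 8 knockout libraries as 1 group, 7 with DESeq2, 6 when calls also had to reach 1 on the log2 scale, 13 in gene bodies without flanks and 38 with flanks of 100 kb. The whole table moved too. Of all tested Ctrl intervals 7.15% were called in the main fit, 17.6% with the knockout libraries as 1 group and 4.06% with DESeq2. Leaving out 1 library gave 13 (without WT replicate 4 or Smad2_KO2 replicate 3) to 19 calls, where 4.95% to 7.63% of all tested intervals were called. Of 28 in Paused, the same settings gave 58, 18, 5, 13 and 71, averaging same-numbered knockout libraries gave 45, and leaving out 1 library gave 15 (without Smad2_KO1 replicate 2) to 39 (without WT replicate 3). Of all tested Paused intervals 13.9% were called in the main fit, 28.7% with the knockout libraries as 1 group and 8.89% with DESeq2. The share was 19.8% with averaged libraries and 9.68% to 15.0% without 1 library. Among gene regions, 0 in Ctrl became 1 with the replicate block, 1 with library totals, 1 with averaged libraries and 2 with the knockout libraries as 1 group. In Paused 2 became 1 without flanks and 4 with the knockout libraries as 1 group, where 17.8% and 42.6% of all regions were called. The Paused Rxrg region was also gained with library totals, where 27.3% of all regions were called, and in the leave-out fits given with the region sums. The fits with the knockout libraries as 1 group, or averaged by number, made 1 test against WT. A call there did not have to pass in both lines, so those counts come from another rule. The cause was otherwise not tested, except that shorter or longer flanks change the number of intervals tested (120 and 468 in Ctrl, 111 and 451 in Paused) and the fold limit only removes calls.

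With the replicate number as a block, 22 Ctrl and 36 Paused member intervals were called, where 7.97% and 16.2% of all tested intervals were. The labels share numbers between lines. Deviations of same-numbered libraries had mean correlations of 0.01 to 0.11 over pairs of lines, not above 0.1 in every pair. Differently numbered libraries had mean correlations of -0.035 to -0.0028. Deviations were taken from the mean of each line, so these values largely follow from the same-numbered ones and add no evidence. Among libraries of the other lines, 6 of 12 Ctrl and 8 of 12 Paused libraries correlated best with their own number, which 2 of those 8 libraries share. Counting noise lowers such correlations, and whether libraries of 1 number share a batch was not tested. Libraries of 11.5 to 20.0 M reads leave weak intervals with few reads, so changes there can go uncalled. How small a change could be detected there was not measured.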
